A study of Mus musculus with 16 samples.

Results

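The 28 genes described here encode the enzymes of cholesterol and fatty-acid synthesis and their main regulators. They were chosen by gene symbol, and all 28 were found among the 52636 gene identifiers of the count table. By role, 7 act in the mevalonate steps, 11 in the squalene and sterol steps, 4 in regulation or sterol transport and 6 in fatty-acid synthesis. RNA came from mouse cells of the line CRAFR26, labelled RSC, a pluripotent type obtained by differentiating targeted embryonic stem cells. They carry an inducible c-RAF kinase, which on addition of tamoxifen activates the kinases MEK and then ERK. Routine culture contained the Wnt secretion inhibitor IWP2 at 2 µM, the MEK inhibitor PD03 at 1 µM and LIF, a cytokine, at 1000 U/ml. Before the experiment, every group spent 48 h in 250 nM PD173074, an inhibitor of FGF receptors, in place of PD03. The 0h group received nothing further. The 2h and 4h groups received 250 nM 4-hydroxytamoxifen (4OHT) for 2 or 4 h. The rev group received 4OHT for 4 h and then a MEK inhibitor for 2 h. Each group held 4 libraries, 2 from clone 4 and 2 from clone 8, which gave 16 libraries in all.

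No group here received 4OHT without the construct, and none was kept in 4OHT for 6 h. Effects of 4OHT itself and of ERK therefore cannot be told apart, and the same holds for the MEK inhibitor and the 2 further hours in culture. The labels do not say that the 2 libraries of a clone came from separate cultures, so p-values measure the spread between these samples, which may be technical. Total counts ran from 4313599 to 10444126 per library, of which 46.7 to 78.9% fell on 8 features that each held over 1% of all counts. The 28 genes received 10531 to 47574 counts per library. The 6 markers of pluripotent cells summed to between 757 and 1463 CPM in every library, against 0.613 to 3.47 CPM for 4 fibroblast markers. The lowest pluripotent sum was 757 CPM at 4h, against 1041, 1133 and 1182 CPM at 0h, 2h and rev. Markers of neural cells summed to 4.20 to 6.37 CPM at 0h, 5.32 to 8.56 CPM at 2h, 5.93 to 22.8 CPM at 4h and 5.43 to 6.27 CPM at rev. Markers of trophoblast summed to 43.7 to 64.5 CPM at 0h, 26.6 to 68.7 CPM at 2h, 33.3 to 38.9 CPM at 4h and 31.7 to 47.9 CPM at rev. Most of that sum was 1 gene, Tfap2c, with means of 52.1, 44.9, 33.9 and 40.2 CPM in that order. The other trophoblast markers, Elf5, Cdx2 and Hand1, reached at most 0.606, 1.78 and 3.18 CPM in any library. Those of primitive endoderm were at 4.77 to 5.60 CPM at 0h, 5.71 to 7.19 CPM at 2h, 3.32 to 4.80 CPM at 4h and 6.01 to 9.99 CPM at rev, with none of the 6 at 0 in a whole group. Those of mesendoderm were at 5.0 to 5.91 CPM at 0h, and at 6.17 to 8.17, 6.43 to 9.65 and 7.16 to 8.83 CPM at 2h, 4h and rev. All 6 ERK-response genes were called higher at 2h and at 4h against 0h, and lower at rev against 4h, in 6 of 6 each time. Levels are CPM, a gene's counts relative to all counts of its library, scaled by the trimmed mean of M-values (TMM), and each change is on the log2 scale with its standard error. A gene is called where its p-value, adjusted over all 12742 genes tested, is under 0.05. All 28 genes were tested.

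Cells build cholesterol from acetyl-CoA by way of mevalonate, isoprenoid diphosphates, squalene and lanosterol, and they build fatty acids from the same acetyl-CoA by way of malonyl-CoA. The genes of both pathways are targets of the sterol regulatory element binding proteins (SREBPs), which Srebf1 and Srebf2 encode. When membrane sterol is low, SREBPs leave the endoplasmic reticulum, are cut in the Golgi and enter the nucleus. When sterol is high, the INSIG proteins hold them back, and Insig1 is itself an SREBP target, which closes a feedback loop. SREBP-2 acts mainly on sterol genes and SREBP-1c mainly on fatty-acid genes.

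SREBPs bind beside general factors such as NF-Y, which recognises the CCAAT box, and they can bind E-boxes as well as sterol regulatory elements. The stretches before the start sites of 5 genes are therefore shown: 4 that were called higher at 2h (Hmgcs1, Cyp51, Hsd17b7, Insig1) and Fasn, which was not. They are RefSeq sequence of the build GRCm38.p6, 5′ to 3′ on the strand of the gene. Capitals mark a CCAAT box (CCAAT, or ATTGG on the other strand), an E-box (CACGTG) or the sterol regulatory element core (TCACNCCAC, either strand). Hmgcs1 lies on chr13 (chr13:119690101-119690350, plus strand), Cyp51 on chr5 (chr5:4104747-4104947, minus strand), Hsd17b7 on chr1 (chr1:169969242-169969455, minus strand), Insig1 on chr5 (chr5:28071162-28071362, plus strand) and Fasn on chr11 (chr11:120824548-120824797, minus strand).
Hmgcs1: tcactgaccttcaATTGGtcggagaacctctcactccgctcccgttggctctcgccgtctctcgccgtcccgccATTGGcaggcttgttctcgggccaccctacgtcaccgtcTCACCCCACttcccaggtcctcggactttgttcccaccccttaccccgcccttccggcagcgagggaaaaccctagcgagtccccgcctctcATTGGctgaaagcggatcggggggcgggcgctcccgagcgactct
Cyp51: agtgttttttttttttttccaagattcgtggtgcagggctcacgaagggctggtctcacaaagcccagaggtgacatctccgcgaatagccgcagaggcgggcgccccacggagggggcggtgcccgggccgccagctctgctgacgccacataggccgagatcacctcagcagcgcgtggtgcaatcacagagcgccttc
Hsd17b7: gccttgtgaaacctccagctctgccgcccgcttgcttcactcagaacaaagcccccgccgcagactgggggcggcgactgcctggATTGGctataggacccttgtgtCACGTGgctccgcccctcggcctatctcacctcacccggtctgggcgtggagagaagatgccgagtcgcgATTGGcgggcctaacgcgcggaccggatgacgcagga
Insig1: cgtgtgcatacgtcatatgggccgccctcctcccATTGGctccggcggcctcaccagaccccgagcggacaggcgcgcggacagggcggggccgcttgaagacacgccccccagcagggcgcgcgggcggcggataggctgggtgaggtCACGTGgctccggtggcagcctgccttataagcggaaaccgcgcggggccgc
Fasn: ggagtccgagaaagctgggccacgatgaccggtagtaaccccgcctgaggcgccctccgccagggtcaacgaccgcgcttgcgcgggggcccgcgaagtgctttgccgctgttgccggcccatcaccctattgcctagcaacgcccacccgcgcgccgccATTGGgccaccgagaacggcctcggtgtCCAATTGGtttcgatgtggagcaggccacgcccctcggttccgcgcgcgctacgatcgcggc
The Hmgcs1 stretch holds the sterol element core and 3 CCAAT boxes, all 3 read on the other strand. Those of Hsd17b7 and Insig1 each hold an E-box. Fasn holds a CCAAT box that overlaps one on the other strand, and 1 more. No capital falls in the Cyp51 stretch, whose single CCAAT match lies between bases -29 and -25, closer to the start than the bases shown. Only exact matches were marked, so a stretch without capitals may still hold a variant of an element.

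Windows from 250 bases before to 50 bases after the RefSeq start were given for 22 of the 28 genes. Fdps, Fdft1, Sqle, Stard4, Scd1 and Scd2 had none. The CCAAT box was found in 19 of the 22 (86.4%), against 41.06% of 27025 genes with a window. Among the genes called higher at 2h, 6 of 6 with a window held it, as did 13 of the other 16 (81.2%). In the sterol steps it was present in 9 of 9, and in the fatty-acid steps in 2 of 4 (Fasn and Acly). The GC box (GGGCGG, either strand) was in 18 of the 22 (81.8%), against 38.2% of all genes with a window. The E-box was in 4 (18.2%: Hsd17b7, Sc5d, Dhcr7 and Insig1), against 8.09%. The sterol element core was in 1 (4.5%: Hmgcs1), against 1.44%. These are exact matches of letters in a short window, with no test, and variants of the motifs were not searched. The 22 genes all passed the count filter, whereas the 27025 were not limited to genes that did.

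Expressed per kilobase of exon, 4 of the 6 fatty-acid genes were the most abundant of the 28. Scd2, a stearoyl-CoA desaturase, stood at 121 CPM per kilobase over the 16 libraries, Acly, which makes cytosolic acetyl-CoA, at 60.9, fatty acid synthase Fasn at 45.5 and the desaturase Scd1 at 43.3. Hmgcs1, the HMG-CoA synthase, was the most abundant sterol gene at 38.6 CPM per kilobase, followed by Insig1 at 33.9. At the low end were Fdps, which makes farnesyl diphosphate, at 1.81, the acetyl-CoA carboxylase Acaca at 2.28, the sterol reductase Tm7sf2 at 2.31 and the isomerase Idi1 at 3.07 CPM per kilobase. Srebf2 (23.9) was above Srebf1 (10.3) on this scale. Some of these genes share sequence with others: 26.7% of the Fdps exons overlap Gm43738 on the same strand, and 30.4% of the 50-base words of Acaca and 39.1% of those of Acat2 occur in another gene, as do 26.5% for Fdft1 and 25.3% for Idi1. Their levels per kilobase are uncertain for that reason. The exon length also joined all annotated exons of a gene, 4208 bases for Fdps and 17074 for Acaca. The ranks depend on that choice, and no other length was tried.

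After 2 h of 4OHT, 7 of the 28 genes were called higher and 1 lower than at 0h, beside 9.49% higher and 7.48% lower among all genes tested. The 7 were the sterol-step genes Cyp51, Hsd17b7, Sqle and Msmo1, the mevalonate genes Hmgcs1 and Idi1, and Insig1. The largest rise, in Cyp51, was 1.90-fold. Tm7sf2 was the gene that fell, and no fatty-acid gene was called in this comparison (0 of 6 by edgeR and by DESeq2, 1 at an unadjusted p under 0.05). The median log2 change was 0.06 over the 28 genes and 0.003 over all genes. In 6 genes all 4 libraries at 2h lay above all 4 at 0h, and in 2 all lay below, beside 8.59 and 7.68% of all genes. In bulk RNA, a change in the share of cells that express a gene cannot be told apart from a change per cell.

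Among the 7 mevalonate genes, Hmgcs1 and Idi1 were called, both higher. Hmgcs1, which makes HMG-CoA, was at 135 and 131 CPM in clone 4 and 141 and 134 CPM in clone 8 at 0h. At 2h it was at 218 and 282 CPM in clone 4 and 174 and 180.4 CPM in clone 8. All 4 libraries at 2h were above all 4 at 0h, the clone 4 pair by more, and the change was 0.63 ± 0.11 SE, adjusted p = 0.000985 by edgeR. Reads of Gm48342, on the opposite strand over 12.1% of the Hmgcs1 exons, cannot be told from its own unless counting used strand, which is not given in the sources used here. Idi1, which interconverts the isoprenoid building blocks, ranged from 6.32 to 10.8 CPM at 0h and from 9.50 to 16.6 CPM at 2h (log2 change of 0.57, SE 0.16, adjusted p = 0.0186 by edgeR). The 2 ranges overlapped, and 9.2% of its exons lie opposite Gm48574. Its adjusted p rose to 0.0679 without 0h replicate 1 of clone 4, 0.0565 without 0h replicate 2 of clone 8, 0.0507 without 2h replicate 1 of clone 4 and 0.0739 without 2h replicate 2 of clone 8. Mvd, the decarboxylase that makes isopentenyl diphosphate, was at 36.8 and 36.2 CPM in clone 4 and 36.6 and 38.4 CPM in clone 8 at 0h and at 30.2 and 25.7 CPM in clone 4 and 35.9 and 33.2 CPM in clone 8 at 2h. Its 2h libraries were all below its 0h libraries, but the change did not pass the test (log2 change of -0.24, SE 0.11, adjusted p = 0.134 by edgeR). The thiolase Acat2, the kinases Mvk and Pmvk, and Fdps had changes between -0.22 (Mvk) and -0.08 (Acat2) and were not called.

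The 11 squalene and sterol genes included 4 called higher and 1 called lower. Cyp51, the lanosterol demethylase, was at 58.3 and 57.3 CPM in clone 4 and 54.3 and 52.7 CPM in clone 8 at 0h. At 2h it was at 146 and 153 CPM in clone 4 and 71.6 and 75.9 CPM in clone 8. The groups did not overlap, and the clone 4 libraries at 2h were far above the clone 8 pair (log2 change of 0.93, SE 0.14, adjusted p = 0.000238 by edgeR). Hsd17b7, a reductase that acts on sterol intermediates, was at 17.2 and 16.4 CPM in clone 4 and 19.1 and 17.0 CPM in clone 8 at 0h. It rose to 31.1 and 36.2 CPM in clone 4 and 27.7 and 27.1 CPM in clone 8 at 2h, with no overlap between the groups (log2 change of 0.79, SE 0.12, adjusted p = 0.00016 by edgeR). Sqle, the squalene epoxidase, went from at most 88.1 CPM at 0h to at least 89.95 CPM at 2h (log2 change of 0.40, SE 0.09, adjusted p = 0.00509 by edgeR). Msmo1, a methylsterol oxidase, ranged from 97.2 to 117 CPM at 0h and from 134 to 143 CPM at 2h (log2 change of 0.34, SE 0.08, adjusted p = 0.00494 by edgeR). Neither gene's groups overlapped.

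Tm7sf2, a reductase of the same sterol steps, moved the other way. It was at 13.6 and 10.9 CPM in clone 4 and 16.7 and 14.5 CPM in clone 8 at 0h and at 10.4 and 9.12 CPM in clone 4 and 8.21 and 8.20 CPM in clone 8 at 2h, so that every library at 2h was below every one at 0h (log2 change of -0.65, SE 0.16, adjusted p = 0.00918 by edgeR). Of its exons, 12.1% overlap Vps51 on the same strand, where counts of the 2 genes cannot be told apart. In the fit of clone 4 alone the change was -0.32 and was not called (adjusted p = 0.262), against -0.94 in clone 8. Its neighbours in the pathway, squalene synthase Fdft1, lanosterol synthase Lss, Nsdhl, Ebp, Sc5d and the final reductase Dhcr7, had changes from -0.09 (Dhcr7) to 0.29 (Sc5d), none called.

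**Figure D1:**
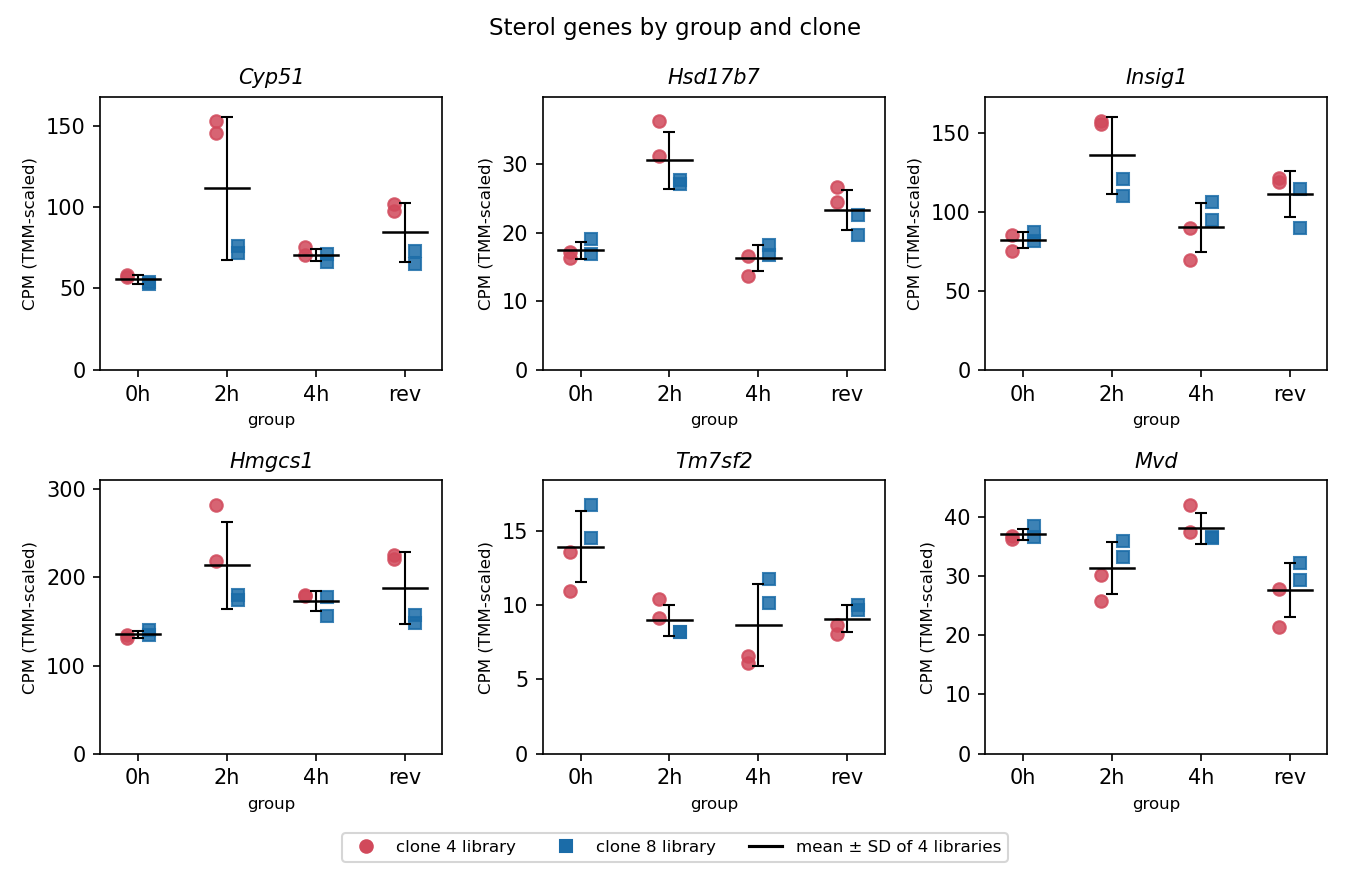
CPM of 6 sterol genes in each library (circles clone 4, squares clone 8) by group, with the mean and SD of the 4 libraries as a line and bar; the vertical axes start at 0. Cyp51, Hsd17b7, Insig1 and Hmgcs1 are higher at 2h than at 0h in every library, Tm7sf2 and Mvd are lower.

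Of the 4 regulators, Insig1 alone was called at 2h. It was at 85.3 and 75.2 CPM in clone 4 and 81.3 and 87.4 CPM in clone 8 at 0h. At 2h it was at 157 and 156 CPM in clone 4 and 121 and 109.8 CPM in clone 8, above 0h in every library (log2 change of 0.71, SE 0.13, adjusted p = 0.00122 by edgeR). Srebf2 itself was at 174 and 139.6 CPM in clone 4 and 152 and 153 CPM in clone 8 at 0h and at 209.6 and 218 CPM in clone 4 and 154 and 133 CPM in clone 8 at 2h. Its groups overlapped, since clone 4 lay higher at 2h and clone 8 did not (log2 change of 0.18, SE 0.10, adjusted p = 0.251 by edgeR). Srebf1 was at 58.7 and 60.0 CPM in clone 4 and 61.9 and 58.6 CPM in clone 8 at 0h and at 57.2 and 43.8 CPM in clone 4 and 65.6 and 58.0 CPM in clone 8 at 2h, also overlapping (log2 change of -0.10, SE 0.09, adjusted p = 0.523 by edgeR). Stard4, a cytosolic sterol carrier, had a change of 0.11 (adjusted p = 0.474).

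The 6 fatty-acid genes had changes between -0.21 (Scd1) and 0.16 (Elovl6) at 2h. Fasn was at 457 and 509 CPM in clone 4 and 494 and 509 CPM in clone 8 at 0h and at 433 and 482 CPM in clone 4 and 561 and 552 CPM in clone 8 at 2h, and the groups overlapped (log2 change of 0.03, SE 0.09, adjusted p = 0.838 by edgeR). Scd2 was at 609 and 574 CPM in clone 4 and 775 and 809 CPM in clone 8 at 0h and at 633 and 553 CPM in clone 4 and 732 and 731 CPM in clone 8 at 2h, with the clones further apart than the groups (log2 change of -0.05, SE 0.09, adjusted p = 0.723 by edgeR). Scd1 came nearest to a call (adjusted p = 0.0885). Scd1 and Scd2 share 4.6 and 4.0% of their 50-base words with other genes. Whether the fatty-acid and sterol genes differ in their response was not tested.

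Scaling by library totals in place of TMM left 3 of the 8 calls at 2h, Cyp51, Hsd17b7 and Insig1. Of all genes, 446 were then called in place of 2162, and their median log2 change was 0.11. The TMM factors of the 2h libraries of clone 8 were 1.26 and 1.399, and those of clone 4 were 0.899 and 0.951.

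**Figure D2:**
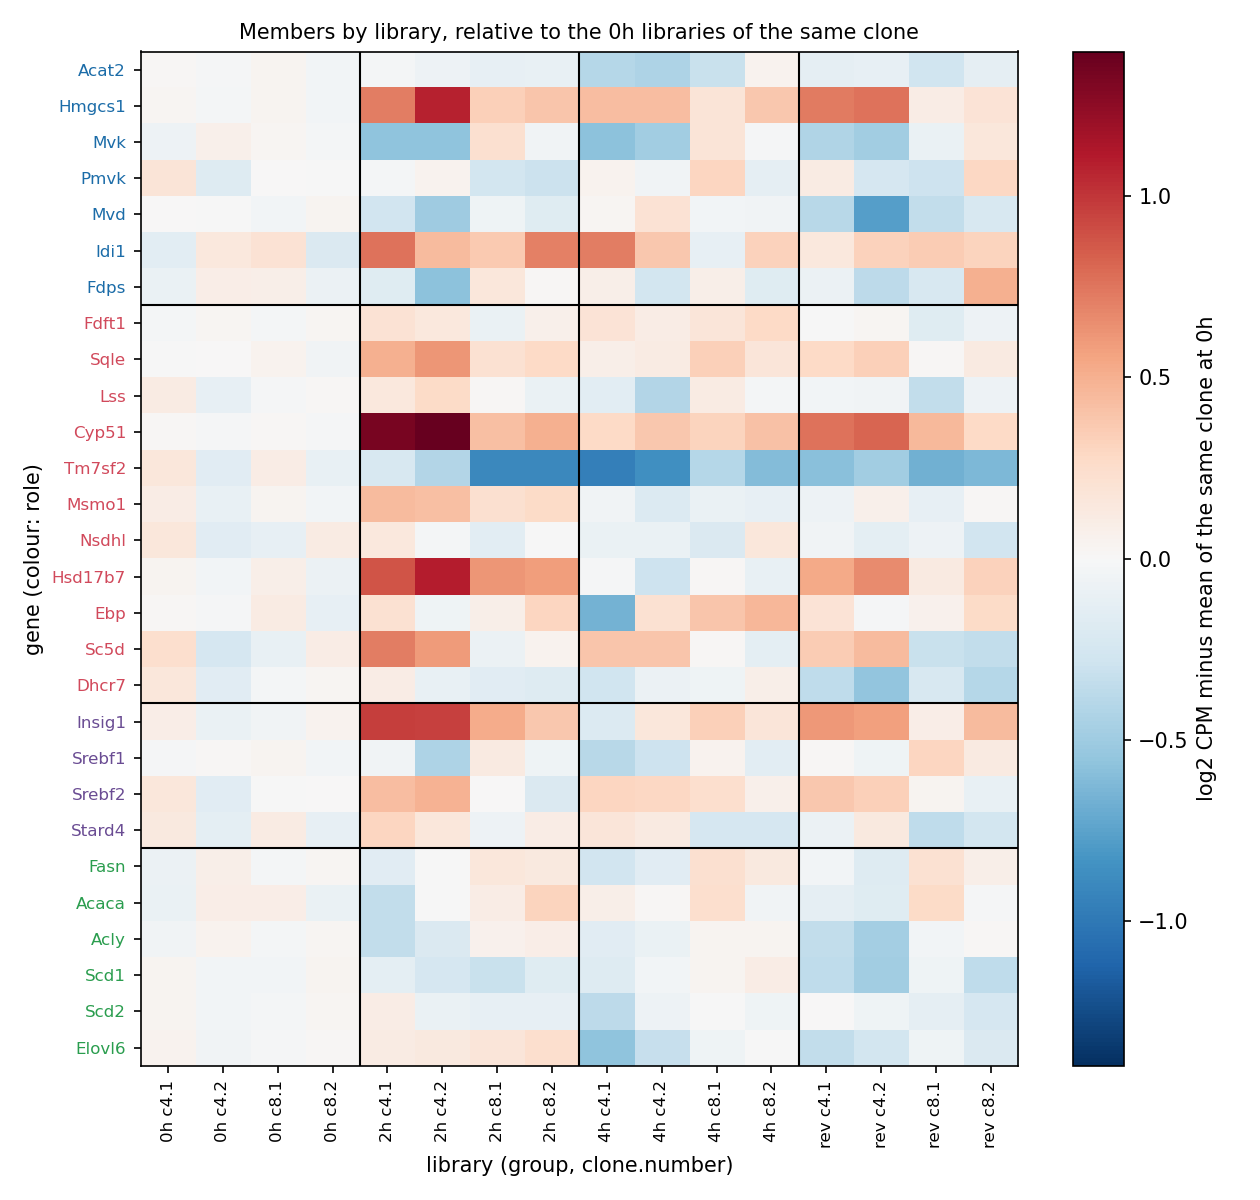
Log2 CPM of the 28 genes (vertical axis, coloured by role) in the 16 libraries (horizontal axis), relative to the mean of the 0h libraries of the same clone, with red for higher and blue for lower. The 2h columns are red in Cyp51, Hsd17b7, Insig1, Hmgcs1 and Idi1, the first 4 more so in clone 4 (c4) than in clone 8 (c8).

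By 4 h of 4OHT, fewer of the genes were called different from 0h. Here 1 of the 28 genes was called higher (Hmgcs1) and 1 lower (Tm7sf2), beside 7.35 and 5.56% of all genes. Hmgcs1 was at 179.9 and 179 CPM in clone 4 and 157 and 178 CPM in clone 8 at 4h, still above all 0h libraries (log2 change of 0.35, SE 0.11, adjusted p = 0.0461 by edgeR). Its adjusted p passed 0.05 when any 1 of 11 of the 16 libraries was left out, the highest being 0.153 without 0h replicate 1 of clone 4. Cyp51 was at 70.4 and 75.2 CPM in clone 4 and 66.3 and 71.2 CPM in clone 8, also above all 0h libraries, but was not called (log2 change of 0.35, SE 0.14, adjusted p = 0.116 by edgeR). Of the 28 genes, those 2 lay above the 0h group without overlap and 0 lay below it, beside 7.37 and 6.18% of all genes. Tm7sf2 was at 6.13 and 6.60 CPM in clone 4 and 11.8 and 10.1 CPM in clone 8, with the clone 4 libraries lowest (log2 change of -0.67, SE 0.17, adjusted p = 0.0113 by edgeR). The call rested on 4h replicate 1 of clone 4, without which the adjusted p was 0.0538. The other 26 genes had changes between -0.26 (Acat2) and 0.35 (Cyp51). With library totals, 0 of the 28 were called, and 508 of all genes in place of 1645.

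The direct test of 4h against 2h called 5 of the 28 genes lower and 0 higher, beside 6.36 and 5.78% of all genes. These comparisons share libraries with those against 0h, so their values are given side by side. Hsd17b7 was back at 16.5 and 13.7 CPM in clone 4 and 18.2 and 16.7 CPM in clone 8 at 4h, each below every 2h library (log2 change of -0.87, SE 0.12, adjusted p = 0.0002 by edgeR, after 0.79 for 2h against 0h). Insig1 was at 69.9 and 89.7 CPM in clone 4 and 107 and 95.0 CPM in clone 8 (log2 change of -0.58, SE 0.13, adjusted p = 0.00857 by edgeR, after 0.71). Cyp51 fell by 0.58 from 2h to 4h (adjusted p = 0.0123), a call that ended without either 4h library of clone 4 (0.0548 without replicate 1 and 0.0507 without replicate 2). Msmo1 had a log2 change of -0.45, SE 0.08, adjusted p = 0.00134 by edgeR. Elovl6, the elongase of long saturated fatty acids, was the 1 fatty-acid gene among the 5, at 242 and 245 CPM in clone 4 and 187 and 197 CPM in clone 8 at 2h and 151 and 178 CPM in clone 4 and 159.6 and 166 CPM in clone 8 at 4h (log2 change of -0.40, SE 0.09, adjusted p = 0.00622 by edgeR). Hmgcs1, the 1 gene still called higher at 4h, did not pass the test between 2h and 4h (log2 change of -0.28, SE 0.11, adjusted p = 0.103 by edgeR). The other 22 genes lay between -0.23 (Idi1) and 0.27 (Mvd), none called. In fits of clone 4 and clone 8 alone, the changes were -1.04 and -0.10 for Cyp51, -0.99 and -0.19 for Insig1 and -0.57 and -0.24 for Elovl6. They were -0.55 and -0.35 for Msmo1 and -1.13 and -0.64 for Hsd17b7. All 5 were called in clone 4, and only Msmo1 and Hsd17b7 in clone 8. Of the 28 genes, 11 were called in clone 4 alone and 2 in clone 8 alone. Among all genes, 3462 of 12759 were called in clone 4 alone and 1238 of 12831 in clone 8 alone. A difference between the clones was not tested for this comparison. With library totals, Hsd17b7 alone of the 28 was called. Of all genes, 385 were then called in place of 1547, and their median log2 change was -0.14.

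After 2 h of MEK inhibitor following 4 h of 4OHT (rev against 4h), 1 of the 28 genes was called higher and 2 lower, beside 4.5 and 5.1% of all genes. Hsd17b7 rose to 24.4 and 26.7 CPM in clone 4 and 19.7 and 22.5 CPM in clone 8 at rev, every library above the 4h group (log2 change of 0.51, SE 0.12, adjusted p = 0.0111 by edgeR). Mvd was at 37.3 and 41.9 CPM in clone 4 and 36.6 and 36.3 CPM in clone 8 at 4h and at 27.8 and 21.3 CPM in clone 4 and 29.4 and 32.1 CPM in clone 8 at rev, every library below the 4h group (log2 change of -0.46, SE 0.11, adjusted p = 0.0116 by edgeR). These were the 2 genes whose groups did not overlap, 1 in each direction, beside 4.29 and 4.58% of all genes. Scd1 was at 187 and 206 CPM in clone 4 and 257 and 269 CPM in clone 8 at 4h and at 166 and 152 CPM in clone 4 and 240.1 and 195 CPM in clone 8 at rev, with overlap between the groups, since the clones lay apart (log2 change of -0.29, SE 0.09, adjusted p = 0.0333 by edgeR). All 3 calls ended without rev replicate 2 of clone 4, with adjusted p-values of 0.0683 for Mvd, 0.0509 for Hsd17b7 and 0.132 for Scd1. Scd1 also lost its call without any 1 of 5 other libraries (adjusted p from 0.0542 to 0.0895). With library totals, none of the 28 was called. Of all genes, 530 were then called in place of 1224, and their median log2 change was -0.20. The TMM factor of rev replicate 1 of clone 8 was 0.537, the lowest of all libraries, and that library had 78.9% of its counts on the 8 abundant features.

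The feedback regulator and the SREBP genes were not called at rev against 4h. Without 4h replicate 1 of clone 8, Insig1 (adjusted p = 0.0477 by edgeR) and Srebf1 (0.0388) were called higher, as was Srebf1 without 2h replicate 2 of clone 4 (0.0455). Insig1 was at 122 and 119 CPM in clone 4 and 89.6 and 115 CPM in clone 8 at rev (log2 change of 0.30, SE 0.13, adjusted p = 0.158 by edgeR). Srebf1 was at 45.2 and 48.5 CPM in clone 4 and 62.5 and 54.2 CPM in clone 8 at 4h and at 60.1 and 57.0 CPM in clone 4 and 74.5 and 65.6 CPM in clone 8 at rev (log2 change of 0.28, SE 0.10, adjusted p = 0.0667 by edgeR). Within each clone, both rev libraries were above both 4h libraries in Srebf1. Srebf2 was at 191 and 191 CPM in clone 4 and 179.8 and 160.3 CPM in clone 8 at 4h and at 202 and 196 CPM in clone 4 and 157 and 142 CPM in clone 8 at rev, overlapping (log2 change of -0.07, SE 0.10, adjusted p = 0.741 by edgeR). Fasn, the multifunctional synthase that makes palmitate, was at 400.1 and 430.2 CPM in clone 4 and 587 and 551 CPM in clone 8 at 4h and at 468 and 426 CPM in clone 4 and 583 and 529 CPM in clone 8 at rev (log2 change of 0.03, SE 0.09, adjusted p = 0.856 by edgeR). Scd2 was at 457 and 561 CPM in clone 4 and 791 and 761 CPM in clone 8 at 4h and 595 and 567 CPM in clone 4 and 728 and 671 CPM in clone 8 at rev (log2 change of 0.02, SE 0.09, adjusted p = 0.926 by edgeR). In Fasn and Scd2 the clones lay further apart than the groups. The genes not called lay between -0.31 (Dhcr7) and 0.30 (Insig1).

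Compared with cells never induced, 4 genes of the rev group were called higher and 4 lower, beside 5.51 and 4.94% of all genes. Cyp51 (0.57), Hmgcs1 (0.45), Insig1 (0.44) and Hsd17b7 (0.43) were higher, with adjusted p-values of 0.0167, 0.0167, 0.0378 and 0.0282. Tm7sf2 (-0.61), Mvd (-0.43), Dhcr7 (-0.39) and Scd1 (-0.31) were lower, with adjusted p-values of 0.0237, 0.0188, 0.0178 and 0.0243. Cyp51 was at 97.8 and 102 CPM in clone 4 and 73.3 and 64.7 CPM in clone 8 at rev and Hmgcs1 at 220.5 and 225 CPM in clone 4 and 148 and 157 CPM in clone 8, with clone 4 higher in both. Tm7sf2 at rev was at 8.02 and 8.63 CPM in clone 4 and 9.69 and 9.98 CPM in clone 8. None of the 8 calls held without 0h replicate 1 of clone 4 or without rev replicate 2 of clone 4. With library totals Tm7sf2 alone of the 28 was called. Of all genes, 449 were then called in place of 1332, and their median log2 change was -0.24. Without 0h replicate 2 of clone 4 or rev replicate 2 of clone 8, 4 were called, and without rev replicate 1 of clone 4, 3 were. Against 2h, rev had 0 genes called higher and 2 lower, Msmo1 (-0.36 ± 0.08 SE, adjusted p = 0.0145 by edgeR) and Elovl6 (-0.38 ± 0.09 SE, adjusted p = 0.0229 by edgeR), beside 0.769 and 1.01% of all genes. With library totals, 0 of the 28 were called against 2h. Of all genes, 157 were then called in place of 227, and their median log2 change was -0.35. Neither Msmo1 nor Elovl6 was called against 2h without 2h replicate 1 or rev replicate 1 of clone 4, and Elovl6 was also lost without 2h replicate 2 or rev replicate 2 of either clone 4 or clone 8.

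The 2h and rev groups have in common that an agent, 4OHT or the MEK inhibitor, had been added 2 h before collection. Earlier results of these data had shown the libraries to part along that line. The contrast of their mean with the mean of 0h and 4h is therefore given as a description. Here 6 genes were called higher and 2 lower, beside 9.73 and 8.01% of all genes. The 6 were Hsd17b7 (0.65 ± 0.08 SE, adjusted p = 5.28e-05 by edgeR), Cyp51 (0.57 ± 0.10 SE, adjusted p = 0.000865 by edgeR), Insig1 (0.51 ± 0.09 SE, adjusted p = 0.00125 by edgeR), Hmgcs1 (0.36 ± 0.08 SE, adjusted p = 0.0044 by edgeR), Msmo1 (0.21 ± 0.05 SE, adjusted p = 0.0118 by edgeR) and Sqle (0.21 ± 0.06 SE, adjusted p = 0.031 by edgeR). The 2 lower genes were Mvd (-0.35 ± 0.08 SE, adjusted p = 0.00453 by edgeR) and Scd1 (-0.25 ± 0.06 SE, adjusted p = 0.00712 by edgeR). Hsd17b7 was the 1 gene whose 8 libraries at 2h and rev all lay above the 8 at 0h and 4h, and Mvd the 1 whose libraries all lay below, beside 0.361 and 0.385% of all genes. A call in this contrast does not show a change at both additions. Msmo1 averaged 110, 139, 102 and 108 CPM at 0h, 2h, 4h and rev, and Sqle 82.6, 111, 93.2 and 95.0 CPM. Hsd17b7 was the only gene called higher both at 2h against 0h and at rev against 4h. Mvd and Scd1 were called lower at rev against 4h but not at 2h against 0h. In the contrast itself, Sqle lost its call when any 1 of 9 libraries was left out (adjusted p from 0.052 to 0.0757). With library totals, Hsd17b7 alone was called. In the same contrast, 2 of the 3 primitive endoderm markers tested were called higher, and of the 6 pluripotent markers 2 were called higher and 1 lower. The 2 endoderm markers were Dab2 and Pdgfra, with only 1 to 29 and 2 to 24 counts per library. Gata4 was not called, and Gata6, Sox17 and Sox7 were too low to be tested. The part of those markers in these values was not tested. Neither Srebf1 (0.09, adjusted p = 0.357), Srebf2 (0.06, adjusted p = 0.641), Fasn (0.03, adjusted p = 0.755) nor Scd2 (-0.02, adjusted p = 0.876) was called.

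**Figure D3:**
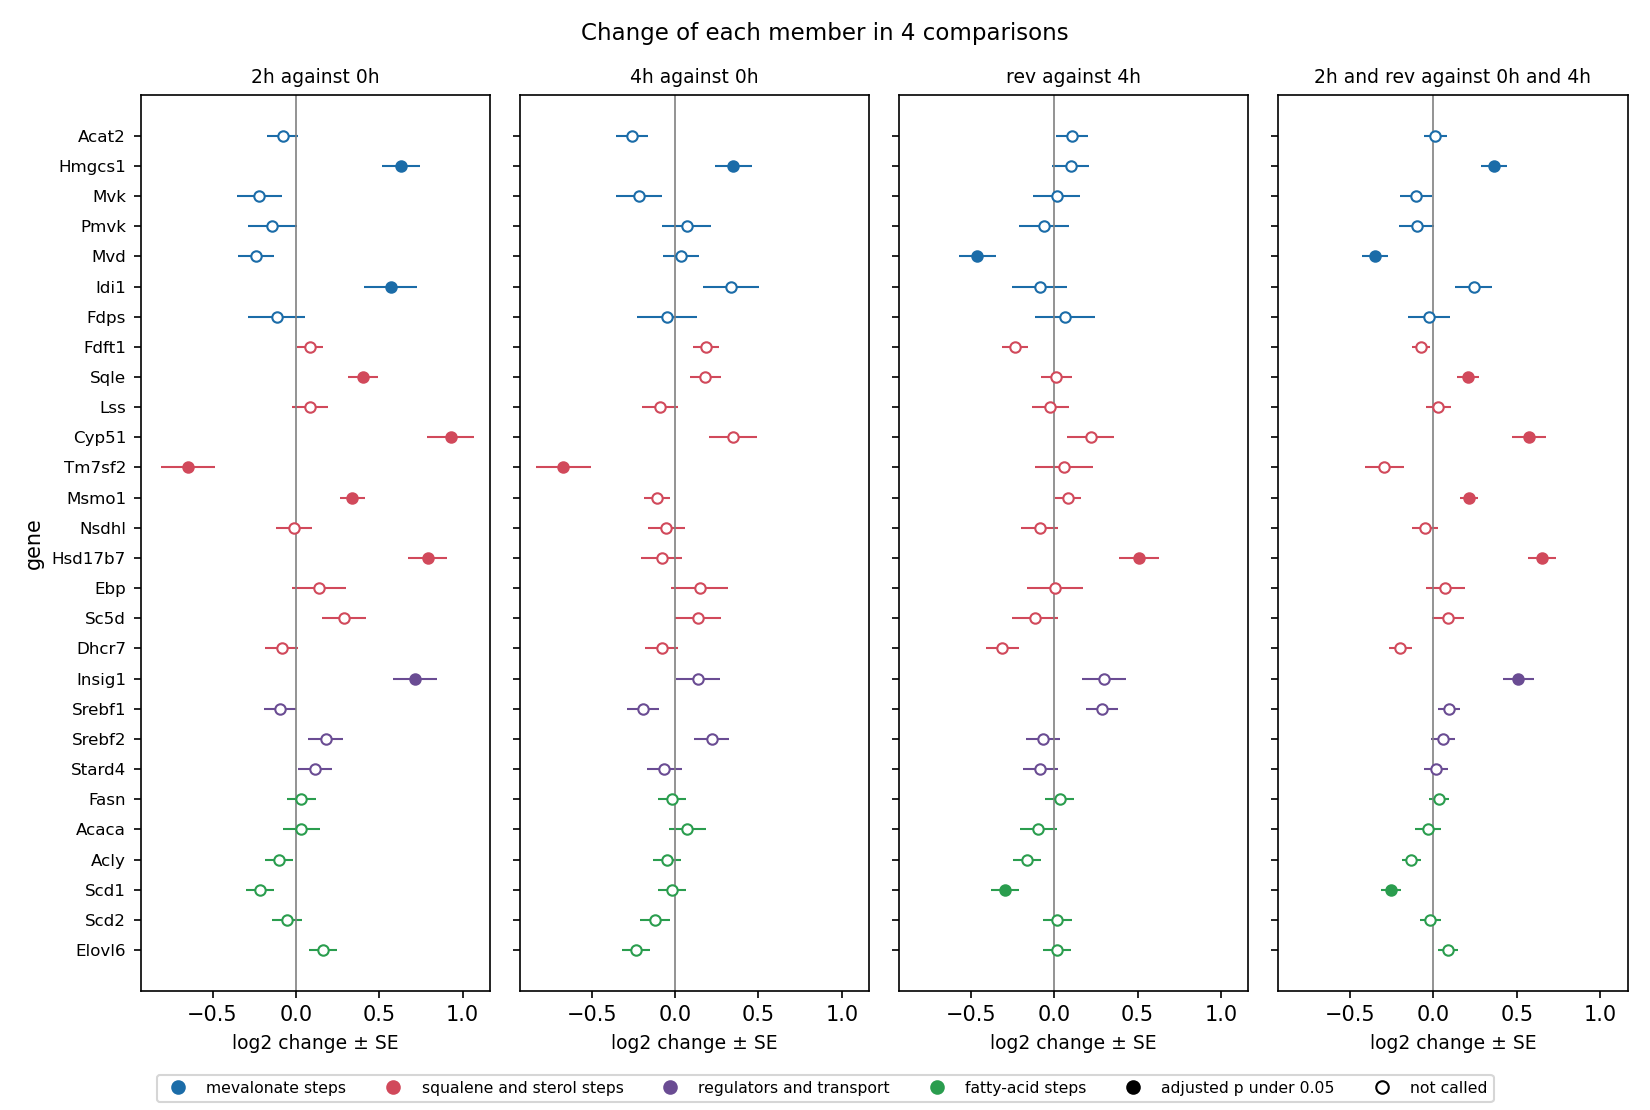
Log2 change and SE (horizontal axis) of each of the 28 genes (vertical axis, coloured by role) in 4 comparisons, filled where the adjusted p is under 0.05. At 2h the filled points to the right are sterol genes and Insig1, while the fatty-acid genes lie near 0.

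Of a list of 14 further fatty-acid genes, 13 were tested, and of these 3 were called higher at 2h and 0 lower, beside 9.49 and 7.48% of all genes: Fads3 (1.16 ± 0.30 SE, adjusted p = 0.0128 by edgeR), a member of the desaturase family, Me1 (0.60 ± 0.15 SE, adjusted p = 0.0111 by edgeR), which supplies NADPH, and Acsl4 (0.33 ± 0.11 SE, adjusted p = 0.041 by edgeR), which activates fatty acids. Fads3 had only 3 to 33 counts per library, with a mean of 1.22 CPM at 0h. At 4h against 0h, 1 was called lower (5.56% of all genes) and 0 higher (7.35%), Acacb being the 1, the mitochondrial carboxylase (-0.49 ± 0.16 SE, adjusted p = 0.046 by edgeR), and at rev against 4h none was by edgeR (3 at an unadjusted p under 0.05).

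The clones differed in the level of most of the 28 genes. Averaged over the 4 groups, 12 were called higher and 8 lower in clone 8 than in clone 4, beside 21.7 and 21.6% of all genes. All 6 fatty-acid genes were among them, 5 higher in clone 8: Scd2 (0.40 ± 0.06 SE, adjusted p = 3.93e-07 by edgeR), Scd1 (0.32 ± 0.05 SE, adjusted p = 7e-06 by edgeR), Fasn (0.28 ± 0.05 SE, adjusted p = 6.05e-05 by edgeR), Acaca (0.28) and Acly (0.25). Elovl6 was lower (-0.26 ± 0.05 SE, adjusted p = 8.39e-05 by edgeR). Among the sterol genes, Dhcr7 (0.42), Ebp (0.34), Tm7sf2 (0.29), Acat2 (0.29) and Mvk (0.23) were higher in clone 8. Idi1 (-0.53), Cyp51 (-0.44 ± 0.05 SE, adjusted p = 1e-08 by edgeR), Pmvk (-0.28), Hmgcs1 (-0.27), Sqle (-0.27) and Fdft1 (-0.21) were lower. The 2 SREBP genes went opposite ways, Srebf1 higher in clone 8 (0.22 ± 0.06 SE, adjusted p = 0.00249 by edgeR) and Srebf2 lower (-0.30 ± 0.05 SE, adjusted p = 2.7e-05 by edgeR). Stard4 was higher (0.16), a call lost without any 1 of 10 libraries (adjusted p from 0.0557 to 0.149 by edgeR). Mvk lost its call without any 1 of 4 libraries (0.0515 to 0.0935) and Ebp without 4h replicate 1 of clone 4 (0.0768). Scd2 shows the pattern by library: at 0h, 609 and 574 CPM in clone 4 against 775 and 809 CPM in clone 8, and at 4h, 457 and 561 CPM against 791 and 761 CPM. With library totals, 10 of the 28 were called, and 3225 of all genes in place of 5520. There are 2 clones, so a difference between them is a difference between those 2 lines.

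**Figure D4:**
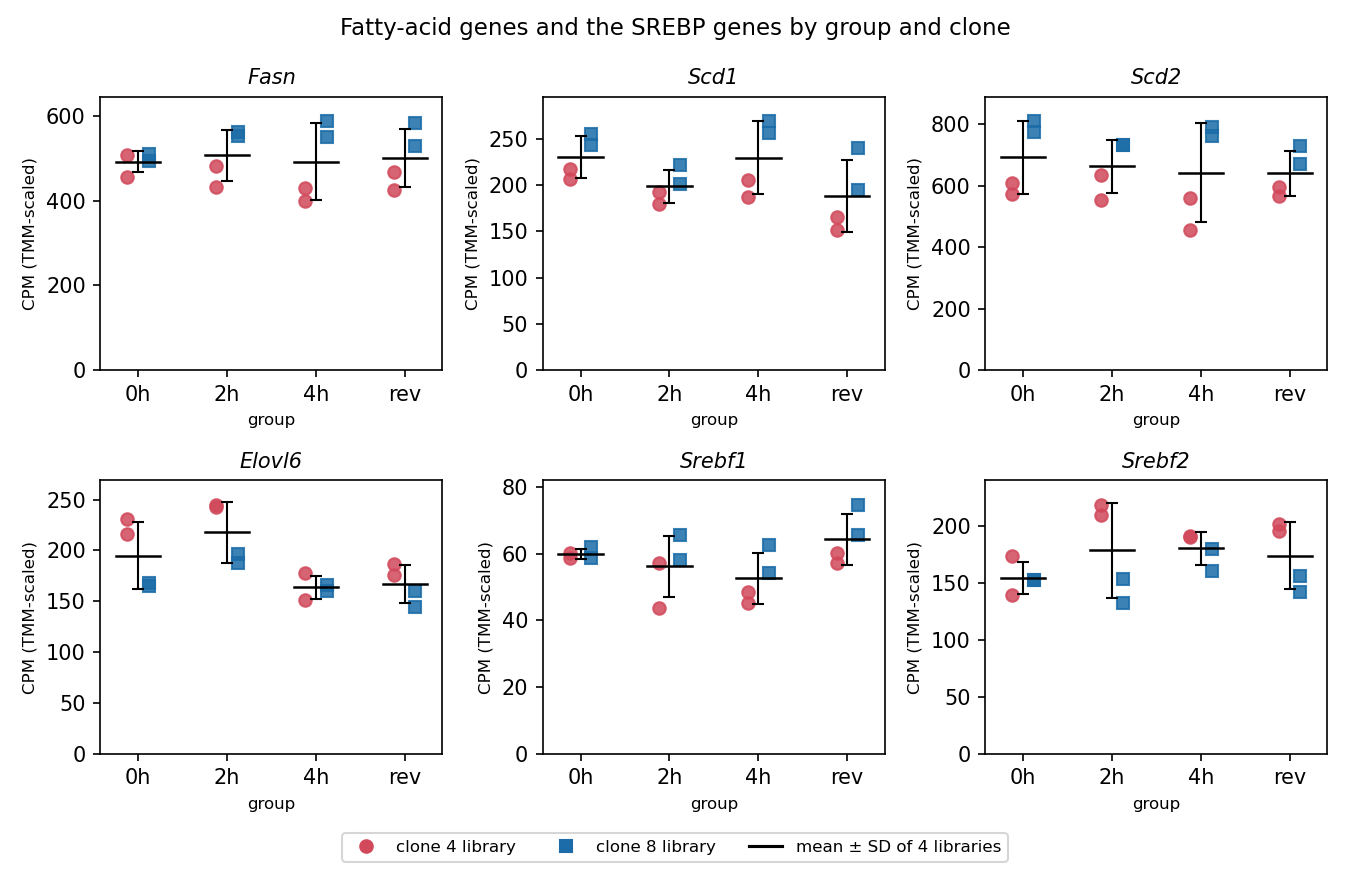
CPM of 4 fatty-acid genes and both SREBP genes in each library (circles clone 4, squares clone 8) by group, with the mean and SD of the 4 libraries; the vertical axes start at 0. Scd2 is higher in clone 8 in every group, Elovl6 is higher in both clone 4 libraries at 0h, 2h and rev, and Srebf2 is highest in the clone 4 libraries at 2h.

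The change at 2h differed between the clones in 3 of the 7 genes that rose (Cyp51, Hmgcs1 and Insig1) and in 3 others. In a fit of clone 4 alone, 9 genes were called higher and 1 lower, beside 12.1 and 8.61% of all genes. In clone 8 alone, 4 were called higher and 1 lower, beside 8.83 and 9% of all genes. The 4 higher in clone 8 were Hmgcs1, Cyp51, Hsd17b7 and Insig1, all called in clone 4 too. Testing the difference between the clones called 5 genes with a lower change in clone 8 and 1 with a higher one, beside 5.01 and 2.93% of all genes. The lower ones were Cyp51 (1.36 in clone 4 and 0.46 in clone 8, difference -0.91 ± 0.14 SE, adjusted p = 7.47e-05 by edgeR), Sc5d, a sterol desaturase (0.66 and -0.01, difference -0.68 ± 0.20 SE, adjusted p = 0.0262 by edgeR), Hmgcs1 (0.90 and 0.36, difference -0.55 ± 0.15 SE, adjusted p = 0.0208 by edgeR), Srebf2 (0.44 and -0.10, difference -0.55 ± 0.15 SE, adjusted p = 0.0208 by edgeR) and Insig1 (0.96 and 0.45, difference -0.52 ± 0.16 SE, adjusted p = 0.045 by edgeR). Mvk, the mevalonate kinase, fell in clone 4 (-0.58 ± 0.17 SE, adjusted p = 0.0134 by edgeR) and had a change of 0.09 in clone 8 (difference 0.67 ± 0.21 SE, adjusted p = 0.0439 by edgeR).

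Srebf2 illustrates the difference between the clones at 2h. In clone 4 it went from 174 and 139.6 CPM to 209.6 and 218 CPM, and in clone 8 from 152 and 153 CPM to 154 and 133 CPM. The Cyp51 difference kept its call whichever library was left out. The other 5 each lost theirs without 0h replicate 2 of clone 4, with adjusted p-values of 0.286 (Sc5d), 0.24 (Insig1), 0.204 (Srebf2), 0.17 (Mvk) and 0.0958 (Hmgcs1), and the number of libraries whose omission ended the call was 4, 10, 5, 7 and 6 in that order. With library totals none was called, and the differences of Hmgcs1 (0.031), Insig1 (0.064) and Srebf2 (0.029) changed sign. Of all genes, 476 were then called in place of 1012, and their median log2 change was 0.56. Among the ERK-response genes, the change at 2h was lower in clone 8 in 3 of 6 by the same test, and at 4h in 6 of 6. The part of these values in the difference between the clones was not tested.

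**Figure D5:**
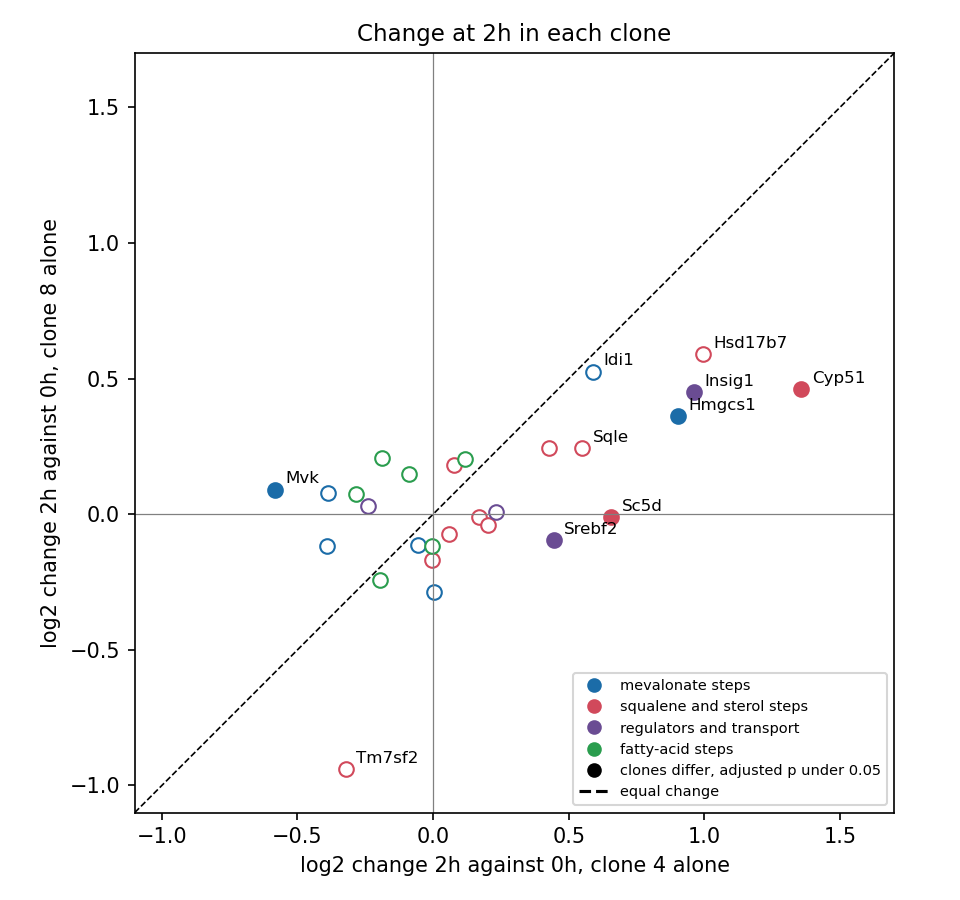
Log2 change at 2h against 0h in clone 4 (horizontal axis) and clone 8 (vertical axis) for the 28 genes, coloured by role and filled where the clones differ at an adjusted p under 0.05; the dashed line marks equal change. Cyp51, Hmgcs1, Insig1, Sc5d and Srebf2 lie below the line and Mvk above it.

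For 4h against 0h, no gene of the 28 was called to differ between the clones by edgeR or DESeq2 (6 at an unadjusted p under 0.05), beside 5.72% of all genes. Without 4h replicate 2 of clone 4, 2 were called. For rev against 4h, 0 differed upward and 2 downward in clone 8, beside 6.3 and 6.89% of all genes. Insig1 rose in clone 4 (0.62 ± 0.12 SE, adjusted p = 0.000322 by edgeR) and had a change of 0.04 in clone 8, a difference of -0.57 ± 0.17 SE, adjusted p = 0.0196 by edgeR. Cyp51 rose in clone 4 (0.47 ± 0.11 SE, adjusted p = 0.0017 by edgeR) and had a change of -0.01 in clone 8, a difference of -0.47 ± 0.14 SE, adjusted p = 0.0272 by edgeR. Both differences lost their call without 4h replicate 1 of clone 4 (adjusted p = 0.232 and 0.151) or rev replicate 2 of clone 4 (0.0527 and 0.0989). That of Insig1 was also lost without 4h replicate 1 of clone 8 (0.107), rev replicate 1 of clone 4 (0.0556) or rev replicate 1 of clone 8 (0.106). That of Cyp51 was also lost without 4h replicate 2 (0.0966) or rev replicate 2 (0.161) of clone 8. With library totals, 8 of the 28 differed, all downward. Of all genes, 1895 then differed in place of 1681, and their median log2 change was -0.67. In clone 4 alone, 4 genes were called higher and 2 lower at rev against 4h, beside 12.8 and 11.8% of all genes. In clone 8 alone, 0 of the 28 were called in either direction by edgeR (8 at an unadjusted p under 0.05), beside 3.37 and 3.05% of all genes.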

How the data were processed

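Per the labels' protocols, ribosomal RNA was removed from the extracted RNA before libraries were made. The authors deposited 1 table of raw counts per gene for 16 libraries. Per the submitters' processing notes, reads were demultiplexed with bcl2fastq 2.19.1 and aligned to mm10 with STAR 2.5.3a. The counting program, gene annotation and strand setting are not given in the sources used here. Of 52636 identifiers, 52489 matched the GENCODE annotation of GRCm38, which gave names, positions and exon lengths.

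Counts were tested with edgeR 4.0.16 in R 4.3.3 (quasi-likelihood F-test). TMM scaling was used, and genes were filtered by group (minimum count 10, minimum total 15). One model held the 4 groups and the clone, and a second the 8 combinations of group and clone. P-values were adjusted over 12742 genes by the Benjamini-Hochberg method. CPM are scaled over the genes kept, and 3 counts correspond to 0.21 to 0.908 CPM. Of 200 genes changed in data made for a self-test, 164 (2h against 0h, 12564 genes), 160 (4h against 0h, 12574 genes) and 159 (rev against 4h, 12266 genes) were recovered. Of the 50 changed by 1.5-fold, 27, 26 and 29 were recovered in that order, and 9, 9 and 11 unchanged genes were called. The made data held no difference between clones and none of the differences between libraries that TMM corrects. These numbers therefore do not measure recovery in the real libraries. Alternatives were DESeq2 1.42.0, other scaling, filters and thresholds, each clone alone, no clone term, a replicate block and leaving out each library.

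The genes and lists were chosen with earlier results of these data known. A list of further sterol-pathway genes is not reported here. Per-library values are given for the 4 genes with the largest called change in each direction in 4 comparisons, and for Srebf1, Srebf2, Insig1, Fasn and Scd2. Other genes are named by change or range. Libraries of the same clone and group differed by more than counting noise (chi-square of 1.32 to 4.49 for each degree of freedom), and each counts as 1 sample.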

Additional observations from a re-analysis of the deposited data

Results flagged for a closer look

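Of 112 gene and group combinations examined, 4 had 1 library standing apart from the other 3 by Dixon's 95% criterion, and chance alone marks about 1 group in 20. Hmgcs1 was at 157 CPM in 4h replicate 1 of clone 8, against 178 to 179.9 CPM in the others. Lss was at 49.0 CPM in 0h replicate 2 of clone 4, against 57.7 to 59.1 CPM. Ebp was at 11.9 CPM in 0h replicate 1 of clone 8, against 10.2 to 10.4 CPM. Sc5d was at 20.5 CPM in 4h replicate 2 of clone 8, against 22.9 to 23.2 CPM.

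The change differed between the clones in 8 results, given as clone 8 minus clone 4 on the log2 scale. At 2h against 0h the differences were -0.91 for Cyp51, -0.68 for Sc5d, -0.55 for Hmgcs1, -0.55 for Srebf2, -0.52 for Insig1 and 0.67 for Mvk. At rev against 4h they were -0.57 for Insig1 and -0.47 for Cyp51.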

How the results depend on the processing

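Counts of the 28 genes called depended on the scaling, the clone term, the threshold and single libraries. With library totals in place of TMM, 3 were called at 2h against 0h (2h/0h), 0 at 4h/0h, 1 at 4h/2h, 0 at rev/4h, 1 at rev/0h, 0 at rev/2h, 1 at 2h+rev/0h+4h, and 10 for clone 8 against clone 4. For the clone differences, library totals gave 0 at 2h and 8 at rev/4h, with the changes of Hmgcs1 (0.031), Insig1 (0.064) and Srebf2 (0.029) at 2h reversed in sign. Without the clone term the counts were 5 (2h/0h), 0 (4h/0h), 3 (4h/2h), 1 (rev/4h), 0 (rev/0h) and 0 (rev/2h). Clone 4 alone gave 5 (4h/0h), 11 (4h/2h) and 6 (rev/4h). Clone 8 alone gave 5 (2h/0h), 1 (4h/0h), 2 (4h/2h), 0 (rev/4h), 3 (rev/0h) and 1 (rev/2h). At an adjusted p under 0.01, no gene was called at 4h/0h, rev/4h, rev/0h or rev/2h (0 each), and the clone differences gave 1 (2h) and 0 (rev/4h). DESeq2 gave 5 for rev/4h and, for the clone differences, 3 (2h) and 1 (rev/4h), and no filter gave 3 and 6. Counts over all genes changed between settings too. At 2h/0h, 2162 were called in the main fit, 446 with library totals and 757 without the clone term. At 4h/2h they were 1547 in the main fit, 3462 in clone 4 alone and 1238 in clone 8 alone. At rev/0h they were 1332, with 449 for library totals and 273 without the clone term.

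Leaving out 1 library at a time gave 7 to 9 (2h/0h), 0 to 3 (4h/0h), 4 to 6 (4h/2h), 0 to 4 (rev/4h), 0 to 8 (rev/0h), 0 to 2 (rev/2h), 7 to 9 (2h+rev/0h+4h) and 18 to 23 (clone 8 against clone 4). The clone differences ran from 1 to 6 (2h), 0 to 2 (4h) and 0 to 3 (rev/4h). Over all genes, the same omissions gave 1272 to 2430 (2h/0h), 642 to 1493 (rev/4h) and 686 to 1567 (rev/0h). They gave 424 to 1149 for the clone difference at 2h. Of 1520 values of named genes with 1 library left out, 1385 kept their direction and side of the threshold, 132 lost the call, 3 gained one and 0 reversed. Under the other alternatives, of 961 values, 817 kept both, 137 lost the call, 4 gained one and 3 reversed. The single-clone fits held fewer libraries, and the cause of these changes in the counts was not tested. No pairing by replicate number was seen. Same-numbered libraries of a clone deviated from their group means with a mean correlation of 0.375, against 0.384 for the other number. Both values include what libraries of a clone share, so they cannot decide whether the samples were paired. A fit with the replicate block gave 8, 1, 5, 2, 7, 2 and 8 genes for the 7 comparisons in the order above, 17 for clone 8 against clone 4, and 4, 0 and 2 for the clone differences. Counts were lowest in Fdps, Tm7sf2, Idi1 and Pmvk.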

Other observations

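Of 7 tested of 8 genes of sterol export and the liver X receptors, which sense oxysterols, 0 were called higher and 3 lower at 2h against 0h, beside 9.49 and 7.48% of all genes. Abcg1, a sterol exporter, had a change of -0.56 ± 0.17 SE, adjusted p = 0.0286 by edgeR. Mylip, a ubiquitin ligase induced by liver X receptors, had a change of -0.89 ± 0.24 SE, adjusted p = 0.0168 by edgeR, and Nr1h2, a liver X receptor, -0.31 ± 0.10 SE, adjusted p = 0.0292 by edgeR. At 4h against 0h, Abcg1 (-0.58 ± 0.18 SE, adjusted p = 0.0342 by edgeR) and Mylip (-0.78 ± 0.25 SE, adjusted p = 0.0498 by edgeR) were called lower, beside 5.56% of all genes. At rev against 4h, Nr1h2 was called lower (-0.33, edgeR adjusted p = 0.0395), beside 5.1% of all genes.

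Of 8 tested of 9 genes of fatty-acid oxidation, 0 were called at 2h against 0h by edgeR (1 at an unadjusted p under 0.05), beside 9.49% higher and 7.48% lower of all genes. Cpt1a, which admits fatty acids to mitochondria, was lower at 4h than at 0h (-0.74 ± 0.18 SE, adjusted p = 0.012 by edgeR) and higher at rev than at 4h (0.81 ± 0.19 SE, adjusted p = 0.00843 by edgeR). Its change at 4h differed between the clones (clone 8 minus clone 4, 0.77 ± 0.23 SE, adjusted p = 0.037 by edgeR), as did its change at rev against 4h (-1.30 ± 0.22 SE, adjusted p = 9.62e-05 by edgeR).

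Over the 4 groups, 3 of the 7 genes of sterol export and the liver X receptors were called higher in clone 8 and 2 lower, beside 21.7 and 21.6% of all genes. Abcg1 (1.45 ± 0.11 SE, adjusted p = 7.92e-13 by edgeR), the acyltransferase Lpcat3 (0.91) and Mylip (0.42) were higher. Apoe, which carries sterol out of cells (-1.33 ± 0.06 SE, adjusted p = 5.91e-18 by edgeR), and the exporter Abca1 (-0.49) were lower. The change at 2h was higher in clone 8 for Abca1 (1.60 ± 0.27 SE, adjusted p = 0.000204 by edgeR) and lower for Apoe (-1.60 ± 0.17 SE, adjusted p = 3e-07 by edgeR) and Soat1, which esterifies sterol (-0.89), beside 2.93 and 5.01% of all genes.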
